A study of Mus musculus with 6 samples.

Results

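Gfap-rich astrocyte nuclei numbered 1021 of the 75867 forebrain nuclei that passed a mitochondrial filter, out of 75878 barcodes in the deposited matrix. They were chosen by their own counts of unique molecular identifiers (UMIs, 1 per captured RNA molecule). A member held at least 2 UMIs of Gfap and a UMI of at least 3 of the 7 astrocyte genes Aqp4, Slc1a3, Gja1, Aldh1l1, Slc4a4, Bmpr1b and Slc7a10. It held at most 1 UMI of the neuronal genes Slc17a7, Slc17a6, Gad1 and Gad2 summed, at most 1 of Pdgfra, none of Mog, at most 1 of the ependymal genes Foxj1, Dnah12 and Spag17 summed and at most 1 of the cycling genes Top2a and Mki67 summed. The comparison set met the same conditions with 0 Gfap UMIs and numbered 7729 nuclei, and a further 1954 nuclei held exactly 1. These genes selected the nuclei, so their levels are given as a description and support nothing here.

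Gfap encodes the intermediate filament protein of astrocytes and is expressed most strongly in the fibrous astrocytes of white matter, in the astrocytes that line the brain surface beneath the pia, around vessels and in the adult-type stem cells of the ventricular wall. Protoplasmic astrocytes of grey matter make little of it and instead carry abundant glutamate transporters and perisynaptic channels. Gfap transcription is driven in development by the LIF and IL-6 family acting through gp130 and STAT3, by BMPs acting through SMADs and the ID proteins, and by NFI factors, and it increases again when astrocytes react to injury.

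The series profiled single nuclei from the flash-frozen forebrain of 16-day-old mice, 3 wild-type (WT) and 3 Npc1-/- littermates homozygous for the Npc1nih allele, all untreated F1 hybrids of BALB/cJ and C57BL6/J parents that carried the allele. NPC1 moves cholesterol out of late endosomes and lysosomes, and the allele is constitutive and present in every cell type. Barcodes carried a suffix from 1 to 6, one for each library, and no label tied a suffix to a mouse or a genotype. All nuclei were therefore treated as 1 pooled sample, the 6 libraries are given as unlabelled samples, and no difference between WT and Npc1-/- was computed. Libraries held 8215 to 16109 filtered nuclei and 51343653 to 107583300 UMIs. Since no label maps a suffix to a sample, the libraries were not treated as replicates and no test was run, and every interval below is a 95% interval that covers counting error only. Members had a median of 4315 UMIs (range 959 to 30120) against 3715 in Gfap-negative astrocyte nuclei. The median mitochondrial share of UMIs was 0.199% in members and 0.142% in Gfap-negative nuclei, higher in members in each of the 6 libraries (0.0943% to 0.397% against 0.0532% to 0.233%), and its part in the differences below was not tested. Barcode sequences were shared between libraries in 631 of 75245 cases, 12 members carried such a sequence and 0 sequences were members in more than 1 library.

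Members made up 1.35% of all nuclei (95% Clopper-Pearson interval 1.26 to 1.43) and 9.54% of the 10704 nuclei that met every condition but the one on Gfap (8.99 to 10.1). By library they numbered 121, 168, 324, 222, 84 and 102 in libraries 1 to 6. The share of astrocyte nuclei was lowest in library 5, at 6.03%, and highest in library 3, at 13.9%, with a median of 9.14% over the 6 libraries. Most members sat close to the threshold: 519 of them (50.8%) held exactly 2 Gfap UMIs, 371 held 3 to 5 and 131 held 6 or more, up to 36. Of the 2950 nuclei with at least 2 Gfap UMIs, 1242 held more than 1 neuronal UMI, 881 showed fewer than 3 astrocyte genes and 316 held a Mog UMI, conditions that could coincide in 1 nucleus.

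Gfap UMIs were also found in nuclei of other cell types. Free RNA in droplets can give such UMIs, and their source was not tested. In 1498 microglia reference nuclei, a cell type that lacks Gfap, 12.9% held a Gfap UMI and 1.60% held 2 or more, at a median of 2315 UMIs. Among 2353 glutamatergic reference nuclei with a median of 10585 UMIs the shares were 13.6% and 1.49%. By library the microglia share with a Gfap UMI was 23.8% in library 3 and 18.1% in library 4, against 6.56% to 11.8% in the others. Libraries 3 and 4 were thus first in Gfap UMIs of microglia nuclei, and libraries 3, 6 and 4 had the highest shares of members. Of the microglia nuclei, 0 of 1498 held 6 or more Gfap UMIs, which allows a share of up to 0.200%, and of the glutamatergic nuclei 0 of 2353, which allows up to 0.127%. These limits are 3 nuclei over the number examined and not Clopper-Pearson limits. Astrocyte nuclei with 6 or more were 0.790% to 1.85% of astrocyte nuclei by library, with library 6 highest and library 5 lowest, and the counting intervals of all 6 libraries overlapped. The part that free RNA had in the differences between libraries was not tested.

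**Figure D1:**
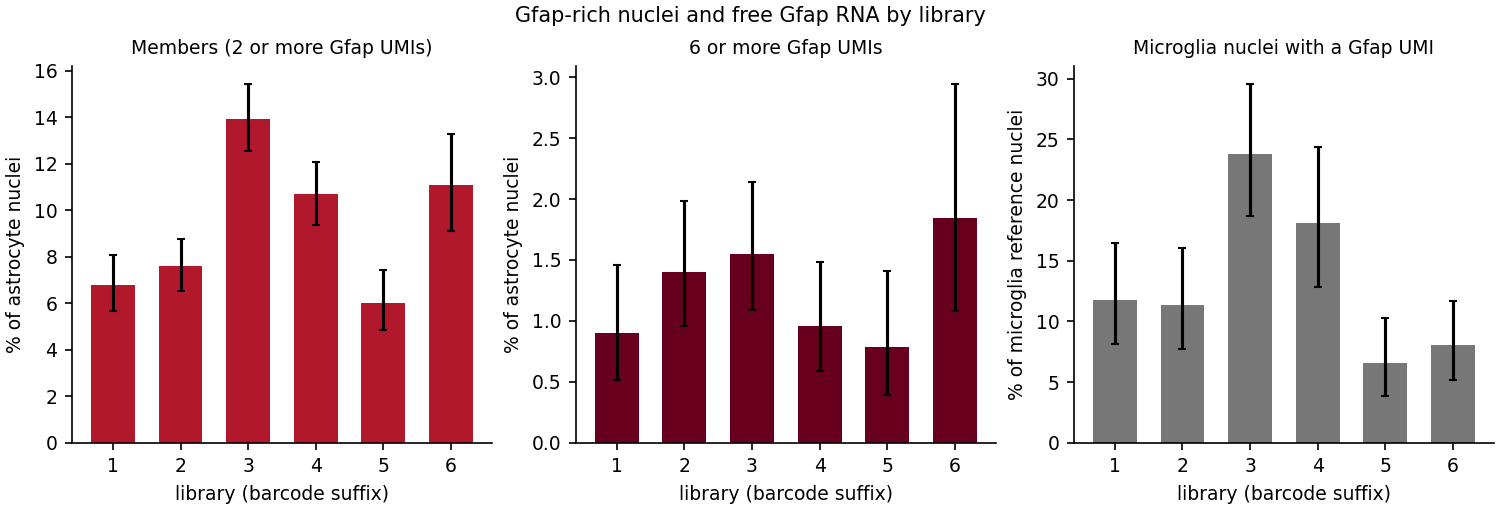
Share of astrocyte nuclei that were Gfap-rich (left), share with 6 or more Gfap UMIs (middle) and share of microglia reference nuclei with a Gfap UMI (right), as bars for the 6 libraries with 95% Clopper-Pearson intervals as error bars. Library 3 was highest on the left (13.9%) and on the right (23.8%), and library 6 was highest in the middle (1.85%).

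The proposed label was a fibrous astrocyte marked by Gfap, Thbs4, Myoc, Tnc and Aqp4. Levels are given as CPM, the UMIs of a gene scaled to a common total of all UMIs (per 1000000), summed over the nuclei of a group. Myoc, which encodes the secreted glycoprotein myocilin, was at 147 CPM in members and 12.2 CPM in Gfap-negative astrocyte nuclei. By library it ranged from 62.9 to 240 CPM with a median of 182 in members, and from 10.6 to 17.4 CPM in Gfap-negative nuclei, so the groups did not overlap. Thbs4, a matricellular thrombospondin, was at 34.4 against 10.7 CPM, with library values of 21.2 to 81.0 (median 37.3) and 5.26 to 19.6 CPM (median 11.2), again without overlap. Tnc, the extracellular matrix glycoprotein tenascin-C, was at 162 against 65 CPM, and its library ranges of 101 to 266 and 43.5 to 101 CPM touched at their ends. Aqp4, the water channel of astrocyte endfeet, is 1 of the 7 genes of the rule and was at 513 against 113 CPM.

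Detection was thinner than these ratios. A Myoc UMI was present in 25.1% of members, a Thbs4 UMI in 9.01% and a Tnc UMI in 41.0%, and 430 of the 1021 members (42.1%) held none of the 3. After every nucleus was thinned to 2000 UMIs, which left out 39 members and 739 Gfap-negative nuclei, Myoc was detected in 16.2% of members (interval 13.9 to 18.6), 2.69% of Gfap-negative astrocyte nuclei and 2.32% of microglia reference nuclei. Thbs4 was detected in 5.80% (4.43 to 7.46), 2.00% and 0.421%, and Tnc in 25.8% (23.1 to 28.6), 11.9% and 2.11%. All 3 markers were thus higher in the members, while 430 members held none and 420 held 1 of them, and the nuclei are called Gfap-rich rather than fibrous below.

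Against Gfap-negative astrocyte nuclei, 87 of 7893 genes (1.1%) were at least 2-fold higher in Gfap-rich nuclei and higher in 6 of 6 libraries, and 12 (0.152%) were at least 2-fold lower and lower in 6 of 6. Genes outside the rule with a mean of at least 20 CPM over both groups were compared. A gene under 20 CPM in either group could enter through the other. Myoc, A2m, C4b, Ggta1, Thbs4 and Hopx, among others, did so through Gfap-rich nuclei. Lrtm1, Gm1992 and Gm37459, among the lower genes, did so through Gfap-negative nuclei. The median gene had a log2 ratio of 0.08, and 63.9% of genes lay above 0, the share against which the counts of list genes above 0 below are to be read. How many of all genes were on the same side in 6 of 6 libraries at any ratio, or did not overlap between libraries, was not counted. Statements of that kind describe single genes and add no weight to their ratios. Without the condition on libraries, 89 genes were at least 2-fold higher and 12 at least 2-fold lower. Nearly all genes at that ratio thus agreed in 6 of 6 libraries. Scaling by the TMM factor of edgeR moved this median to -0.03, a shift of over 0.1, and gave 64 higher and 36 lower genes. The count of lower genes depended on single libraries: it was 5 without library 2, 32 without library 3, 27 without library 4 and 6 without library 6. Without libraries 3 and 4 together there were 159 higher genes, which included all 87, and 180 lower genes. The genes of highest ratio were Myoc, A2m, C4b, Ggta1, Igfbp5, Disp3, Hopx, Id3, Asap3, Greb1, Plscr4, Id4, Prune2, Lgi4 and Il6st, with log2 ratios from 3.59 for Myoc to 1.71 for Il6st.

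Neuronal RNA moved with this comparison. The 6 neuron markers outside the rule, Snap25, Syt1, Rbfox3, Rbfox1, Meg3 and Nrg3, summed to 9427 CPM in members and 14822 CPM in Gfap-negative nuclei, lower in 6 of 6 libraries (4230 to 13073 against 10555 to 19372 CPM by library). Among nuclei with at least 5 of the 7 astrocyte genes in both groups, the neuron markers were at 7695 and 7843 CPM, a log2 ratio of -0.03. This narrower comparison was chosen after the neuron markers had been seen, held 623 members and 2192 Gfap-negative nuclei, and is called matched below. It gave 73 of 7886 genes (0.926%) at least 2-fold higher and 5 (0.0634%) at least 2-fold lower by the same rule. Of these, 37 of the higher genes were also among the 87 (50.7% of the 73 and 42.5% of the 87), and none of the 5 lower genes was among the 12. In the matched comparison 60.4% of genes lay above 0, the share for the matched counts below, and the median log2 ratio was 0.05. Median depth was 4866 against 3948 UMIs in the matched sets. The matching used the astrocyte genes of the rule, and these did not enter both sets alike: a Slc7a10 UMI was present in 31.7% of all members and 41.3% of the matched ones, but in 36.3% of all Gfap-negative nuclei and 67.9% of the matched ones, whereas Aqp4 was present in 85.9% of matched members and 55.7% of matched Gfap-negative nuclei. The part of this selection in the matched values was not tested.

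Genes of the fibrous and subpial list were higher as a group. The list holds Myoc, Thbs4 and Tnc, markers of the proposed label, and was chosen with earlier results of these data known. Its values are thus a description and no separate check of the label. Without Gfap the 13 genes summed to 1192 CPM in members (766 to 1745 by library) and 480 CPM in Gfap-negative nuclei (349 to 603), a log2 ratio of 1.31 (interval 1.27 to 1.35). Of the 11 with enough signal, 11 lay above 0, with a median log2 ratio of 1.24 against 0.08 for all genes, and 6 passed the 2-fold rule: Myoc, Id3, Thbs4, Tnc, Fabp7 and Id1. Fabp7, a brain fatty acid binding protein of radial glia and young astrocytes, was at 143 against 58.5 CPM. Vim, the intermediate filament partner of Gfap, was at 73.8 against 40.7 CPM, without overlap between libraries but below 2-fold. Cd44, the hyaluronan receptor of long fibrous processes, was at 23.1 against 5.28 CPM (log2 ratio 2.13, 1.79 to 2.46) and fell under the level needed for the count. In the matched comparison the list ratio was 0.99 (0.94 to 1.05), with 10 of 11 genes above 0, Fam107a below it (-0.13) and 3 past 2-fold: Myoc at 3.57, Id3 at 1.62 and Id1 at 1.25. Thbs4, Tnc and Fabp7 were at 0.99, 0.65 and 0.99.

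**Figure D2:**
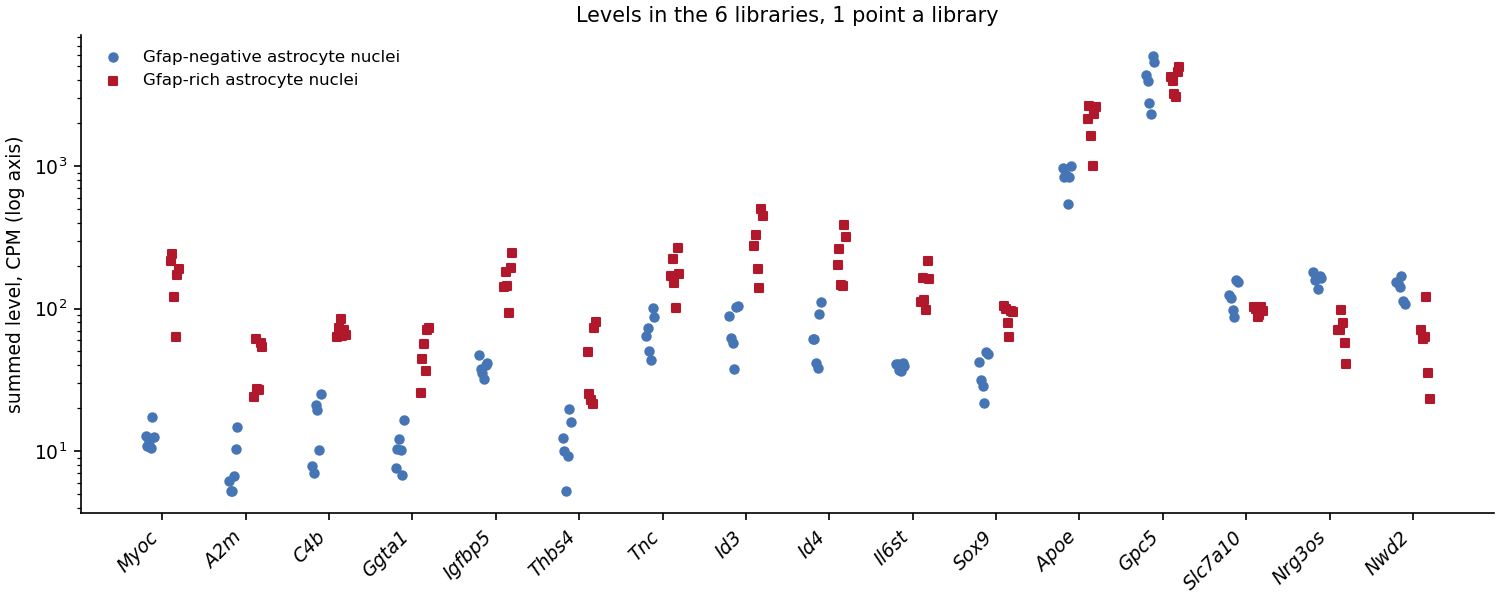
Summed level in CPM (log axis) of 16 genes in the 6 libraries, with Gfap-negative astrocyte nuclei as blue circles and Gfap-rich nuclei as red squares, 1 point a library. Myoc, C4b, Igfbp5, Il6st and Apoe separate without overlap, and Gpc5 and Slc7a10 overlap. Slc7a10 is a gene of the rule. The grey matter list that holds Gpc5 was higher in members as a whole, at a log2 ratio of 0.39.

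The ID proteins, which bind basic helix-loop-helix factors and are standard readouts of BMP signalling, were higher for all 4 genes. Id3 was at 253 CPM in members (138 to 496 by library, median 303) and 68.3 CPM in Gfap-negative nuclei (37.6 to 104, median 75.4), a log2 ratio of 1.89 (1.79 to 1.99). Id4 was at 202 against 59.2 CPM, Id2 at 206 against 70.4 CPM and Id1 at 98.8 against 41.7 CPM, each higher in 6 of 6 libraries with no overlap. All 4 also passed in the matched comparison, with log2 ratios of 1.62 for Id3, 1.35 for Id4, 1.25 for Id1 and 1.16 for Id2. Picked after its values had been seen, Smad6, an inhibitory SMAD that BMP signalling induces, was at 36.6 against 13.6 CPM, and at a log2 ratio of 1.41 when matched.

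Il6st, which encodes the shared gp130 receptor chain of the IL-6 and LIF family, was at 129 CPM in members (98.3 to 214 by library, median 137) and 39.2 CPM in Gfap-negative nuclei (36.5 to 41.6). The lowest members' library was more than 2-fold above the highest library of the other group, and the matched log2 ratio was 1.59. Of the 13 measured genes of the LIF, BMP and Notch list, Il6st alone passed the 2-fold rule, with 11 above and 2 below 0. When matched, 7 genes of this list lay above and 7 below 0, and Il6st and Osmr passed. The partner chains differed less: Lifr was at 121 against 99.6 CPM, Cntfr at 68.3 against 47.1 CPM and Osmr, the oncostatin M receptor, at 23.8 against 13.8 CPM. Osmr passed in the matched comparison (log2 ratio 1.17), where Lifr was at -0.32. Stat3, the transducer downstream of gp130, was at 110 against 67.5 CPM, and the BMP receptor Bmpr1a at 247 against 138 CPM. Microglia reference nuclei held 91.5 CPM of Il6st and 103 CPM of Stat3.

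Of the 16 measured astrocyte transcription factors, 5 passed the rule: Id4, Id2, Sox9, Rfx4 and Hes5. Sox9, which specifies the glial fate, was at 84.1 CPM in members (62.9 to 104 by library, median 95.2) against 34.0 CPM (21.7 to 49.4). Rfx4 was at 299 against 134 CPM and Hes5, a Notch target, at 79.6 against 37.7 CPM with overlapping libraries. Nfia and Nfib, activators of the Gfap promoter, were at 1307 against 928 CPM and 743 against 594 CPM. Matched, Id4 and Id2 kept the 2-fold difference, Sox9, Hes5 and Rfx4 were at log2 ratios of 0.75, 0.50 and 0.45, and Nfia at -0.04.

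The genes named most often lie at these positions in GRCm38 (GENCODE M21), all protein coding: Gfap at chr11:102887336-102900912, Myoc at chr1:162639155-162649693, Thbs4 at chr13:92751590-92794818, Tnc at chr4:63959785-64047015, C4b at chr17:34728380-34743882, A2m at chr6:121635376-121679227, Igfbp5 at chr1:72857932-72874884, Id3 at chr4:136143497-136145755 and Il6st at chr13:112464070-112510086. The near-identical C4a and C4b genes are close neighbours, so UMIs of C4b can include reads of its paralog.

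The members share a marker with known cis-regulation, so the promoter windows of Gfap and of 3 genes named above are shown to place the letters that STAT, NFI and AP-1 factors are known to prefer. The windows are RefSeq promoters of build GRCm38.p6, from 250 bases before to 50 after the annotated start, printed 5′ to 3′ on the gene's strand. Capitals mark every match on either strand to TTCNNNGAA (STAT type), TTGGCA (NFI type) or TGANTCA (AP-1 type), motifs that do not overlap in these windows. The Gfap window lies at chr11:102897151-102897450 on the minus strand, that of Myoc at chr1:162638900-162639199 on the plus strand, that of Igfbp5 at chr1:72874816-72875115 on the minus strand and the Tnc window with a match at chr4:64046887-64047186 on the minus strand.
Gfap: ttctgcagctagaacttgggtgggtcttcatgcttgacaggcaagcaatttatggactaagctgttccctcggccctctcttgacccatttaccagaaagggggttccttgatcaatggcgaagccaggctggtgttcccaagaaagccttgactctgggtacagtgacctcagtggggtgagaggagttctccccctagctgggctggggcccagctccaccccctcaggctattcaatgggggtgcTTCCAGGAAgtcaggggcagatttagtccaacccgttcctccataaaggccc
Myoc: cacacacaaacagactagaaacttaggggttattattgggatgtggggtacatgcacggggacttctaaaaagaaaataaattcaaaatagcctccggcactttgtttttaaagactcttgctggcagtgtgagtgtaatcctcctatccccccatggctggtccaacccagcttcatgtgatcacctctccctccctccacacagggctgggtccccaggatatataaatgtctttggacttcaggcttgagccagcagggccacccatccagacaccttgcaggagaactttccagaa
Igfbp5: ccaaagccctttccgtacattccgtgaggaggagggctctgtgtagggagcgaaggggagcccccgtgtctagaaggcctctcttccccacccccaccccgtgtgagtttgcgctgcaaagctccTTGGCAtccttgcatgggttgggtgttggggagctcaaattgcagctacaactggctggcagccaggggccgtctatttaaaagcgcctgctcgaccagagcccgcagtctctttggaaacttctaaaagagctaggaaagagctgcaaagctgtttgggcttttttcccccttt
Tnc: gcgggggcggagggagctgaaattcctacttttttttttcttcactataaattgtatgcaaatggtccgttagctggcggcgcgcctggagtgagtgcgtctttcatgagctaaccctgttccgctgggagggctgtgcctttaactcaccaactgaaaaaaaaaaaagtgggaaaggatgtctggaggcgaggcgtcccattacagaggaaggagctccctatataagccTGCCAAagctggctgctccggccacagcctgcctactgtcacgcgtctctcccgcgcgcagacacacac
Gfap held 1 STAT-type match, Igfbp5 and this Tnc window 1 NFI-type match each, and Myoc none of the 3. Of the 15 genes of highest ratio, 11 had a window in the table; 2 of their 13 windows (15.4%) held TTGGCA and none the other motifs, against 14.1%, 8.30% and 7.81% of all 32851 windows for TTGGCA, TTCNNNGAA and TGANTCA. Over the 87 higher genes, 65 had a window, and 17.6%, 2.35% and 7.06% of 85 windows held the 3 motifs in the same order. For the 15 genes of lowest ratio, 4 had a window; 0 of 5 windows held TTGGCA, 2 held TTCNNNGAA, both of them overlapping windows of Mlip that hold the same site, and 2 held TGANTCA. A match describes letters in this window only.

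Of the 12 measured genes of the neural stem cell list, 4 passed: Igfbp5, Hopx, Fabp7 and Sox2. Igfbp5, an insulin-like growth factor binding protein, was at 151 CPM in members (92.7 to 247 by library, median 163) against 38.3 CPM (32.1 to 47.4), and at a log2 ratio of 2.01 when matched. Hopx, a homeodomain-only protein that marks quiescent hippocampal stem cells and outer radial glia, was at 50.3 against 13.6 CPM (29.9 to 96.0 and 7.36 to 20.8 by library) and at 1.59 when matched. Sox2 was at 52.0 against 23.5 CPM. When matched, 2 genes of the list passed, Igfbp5 and Hopx, while Fabp7 was at 0.99 and Sox2 at 0.78. Of the neuroblast genes, Dlx2, under the level compared, was at 1.88 against 1.67 CPM, and Dcx at 48.3 against 63.2 CPM, lower in 6 of 6 libraries. Of the 4 measured neuroblast genes 2 lay above and 2 below 0, with a median log2 ratio of -0.05. Cells of the ventricular wall and cells of white matter could not be told apart by position here, since the nuclei carry no location.

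A2m, C4b and Ggta1 followed Myoc in the ranking by ratio. A2m, the protease inhibitor alpha-2-macroglobulin, was at 36.8 CPM in members (24.0 to 61.3 by library, median 40.6) against 6.90 CPM (5.21 to 14.7). C4b, complement component 4, was at 72.7 CPM (63.3 to 84.8, median 68.0) against 14.1 CPM (7.03 to 25.0), and a C4b UMI was present in 26.2% of members, 5.71% of Gfap-negative nuclei and 2.40% of microglia nuclei. Agt, angiotensinogen, was at 54.1 against 21.0 CPM without overlap. Ggta1, an alpha-galactosyltransferase, was at 48.6 against 10.2 CPM, and microglia nuclei held 59.7 CPM of it. The matched log2 ratios were 2.00 for A2m, 2.13 for C4b, 1.05 for Agt and 2.35 for Ggta1, and all 4 passed. The metallothioneins Mt2 and Mt1, which bind zinc and copper, were at 262 against 86.6 and 534 against 240 CPM, and only Mt2 passed when matched (log2 ratios 1.30 and 0.84). A2m, C4b, Agt, Mt1 and Mt2 belong to no list; A2m and C4b are named by the rule on the highest ratios, and the others were picked after their values had been seen.

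Most genes of the reactive astrocyte lists were below the level compared. The pan-reactive list summed to 215 CPM against 112 CPM without Gfap, a log2 ratio of 0.94, but only Vim and Cp reached the level and neither passed 2-fold, while 10 of 12 genes fell below it. When matched the list was at a log2 ratio of 1.10, higher in 6 of 6 libraries, with 3 of 3 measured genes above 0 and Osmr past 2-fold. Osmr is also a gene of the LIF, BMP and Notch list. Aspg was at 15.6 against 2.47 CPM and Serpina3n, a serine protease inhibitor of strongly reactive astrocytes, at 5.45 against 1.89 CPM. Lcn2 was at 1.31 CPM, Timp1 at 0.563 CPM and Steap4 at 0 UMIs in members, which allows up to 0.563 CPM (3 UMIs over the pooled members). Of the 3 measured genes of the LPS-type list, Ggta1 alone passed, and the list as a whole was higher in 3 and lower in 3 libraries. C3, the complement gene used to mark neurotoxic astrocytes, was at 0.563 against 0.222 CPM, which is 3 UMIs in all members. None of the 12 genes of the ischaemia-type list reached the level, and the list summed to 58.0 against 39.1 CPM.

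Of 7 regional transcription factors, 12 adhesion and cytoskeleton genes and 11 glycolysis, glycogen and lactate genes none passed 2-fold. With 1.1% of all genes past it on the higher side and 0.152% on the lower, a count of 0 in lists of this size says nothing particular about them. The lists were at log2 ratios of 0.38, 0.04 and 0.39, and at 0.14, -0.13 and 0.13 when matched.

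Genes of grey matter astrocytes depended on the comparison. Over all members the 13 genes outside the rule summed to 11351 CPM against 8676 CPM (log2 ratio 0.39, 0.38 to 0.40), with 9 of 12 measured genes above 0 and Atp1b2, a sodium pump subunit, the sole gene past 2-fold at 183 against 85.5 CPM. In the matched comparison the same list was lower, at 12961 against 16051 CPM, a log2 ratio of -0.31 (-0.32 to -0.29), lower in 6 of 6 libraries, with 8 of 12 genes below 0 and none past 2-fold. The matching moved the comparison set more than the members: the list went from 8676 to 16051 CPM in Gfap-negative nuclei and from 11351 to 12961 CPM in members. The part that the choice of the matched sets on astrocyte genes had in this change was not tested. Slc1a2, the main glutamate transporter, was at 5228 against 3131 CPM over all members and at a log2 ratio of 0.08 when matched. Gpc5, a glypican abundant in grey matter astrocytes, was at 3651 against 3759 CPM over all members (log2 ratio -0.04, higher in 3 and lower in 3 libraries) and at -0.80 when matched. The NMDA receptor subunit gene Grin2c was at 72.3 against 78.2 CPM and at -0.90 when matched, and the GABA transporter gene Slc6a11 at 231 against 201 CPM and at -0.58. Each of Gpc5, Grin2c, Slc6a11, Itih3 and Htra1 was lower in 6 of 6 libraries when matched. The share of all genes lower in 6 of 6 libraries was not counted there. The 5 genes at least 2-fold lower in the matched comparison were Pygm, Cyp4f15, Hr, 4930505G20Rik and A330076C08Rik. Pygm encodes a glycogen phosphorylase that astrocytes use, and was at 18.3 against 45.4 CPM, so it entered through Gfap-negative nuclei.

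**Figure D3:**
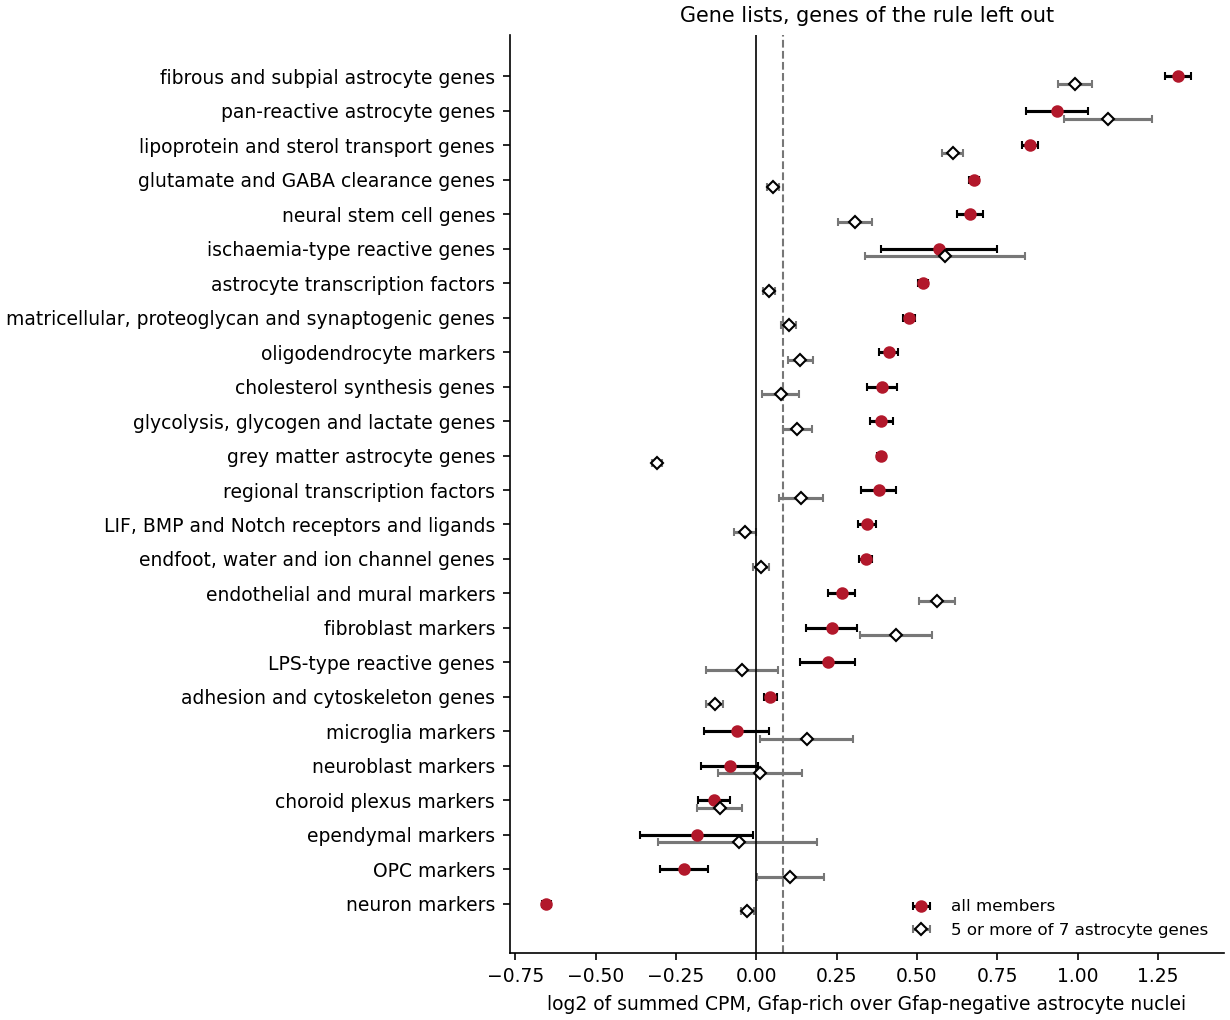
Log2 ratio of the summed CPM of 25 gene lists in Gfap-rich over Gfap-negative astrocyte nuclei, with 95% counting intervals, for all members (red circles) and for nuclei with at least 5 of the 7 astrocyte genes in both groups (open diamonds). The dashed line is the median gene, 0.08. Some lists share genes, among them Thbs4, Tnc, Fabp7, Atp1b2 and Osmr, so their ratios are not independent. The fibrous and subpial list is highest over all members and is at 0.99 when matched, below the pan-reactive list at 1.10, whereas the grey matter list moves from 0.39 to -0.31 and the neuron markers from -0.65 to -0.03.

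Endfoot and perisynaptic genes differed among themselves. Mlc1, a membrane protein of perivascular endfeet, was at 88.6 CPM in members (58.2 to 138 by library) against 36.5 CPM (30.7 to 49.4) and passed with Atp1b2, 2 of 13 measured genes of the endfoot list. Matched, Mlc1 was at a log2 ratio of 0.84, the potassium channel gene Kcnj10 at 0.19 and the adhesion gene Hepacam at 0.04. The glutamate and GABA clearance list was at a log2 ratio of 0.68 over all members, with 9 of 9 genes above 0 and none past 2-fold, and at 0.05 when matched. Ednrb, the endothelin receptor B of astrocytes, was at 133 against 52.5 CPM without overlap between libraries, and was picked after its value had been seen.

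In the matricellular and proteoglycan list, Thbs4, Tnc and Ncan passed among 13 measured genes. Ncan, which encodes neurocan, was at 247 CPM in members (173 to 342 by library, median 256) against 91.2 CPM (84.0 to 97.6), and stayed at 1.30 when matched. Sparcl1, an astrocyte-secreted synaptogenic protein, was at 1156 against 603 CPM, and the related Sparc at 250 against 204 CPM. The other thrombospondins of the list were near the floor, with Thbs1 at 1.69 against 1.70 CPM and Thbs2 at 3.76 against 2.86 CPM. Bcan, another chondroitin sulfate proteoglycan, was at 291 against 177 CPM and at a log2 ratio of 0.15 when matched.

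Of the 13 measured lipoprotein and sterol transport genes, 2 passed the 2-fold rule, with a median log2 ratio of 0.42, and none passed when matched (median 0.27). The list summed to 3025 against 1677 CPM, most of it Apoe. Apoe, the main lipoprotein of astrocytes, was at 1838 CPM in members (1005 to 2633 by library, median 2239) against 818 CPM (546 to 1001), a log2 ratio of 1.17 (1.13 to 1.20), and at 0.96 when matched. Microglia reference nuclei held 784 CPM and glutamatergic nuclei 196 CPM of Apoe. Lrp4, a lipoprotein receptor family member, was the other gene past 2-fold (140 against 63.6 CPM), and Npc1 itself was at 38.5 against 30.7 CPM (log2 ratio 0.33, 0.11 to 0.54). Npc1 values here mix nuclei of both genotypes. The 12 measured cholesterol synthesis genes were all above 0, none past 2-fold, with a median log2 ratio of 0.34. When matched the list was at 0.08 with 7 of 13 genes above 0. Scd1 and Scd2, which desaturate fatty acids and were also picked after their values had been seen, were at 39.4 against 13.7 and 451 against 191 CPM.

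The 12 genes that were lower in Gfap-rich nuclei all had a higher level in glutamatergic reference nuclei than in either astrocyte group. Of the 12, 3 are annotated as protein coding (Lrtm1, Mlip and Nwd2) and 9 as antisense, intergenic or processed noncoding transcripts, among them Nrg3os, named as the opposite strand of Nrg3. Nrg3os was at 77.9 CPM in members (40.5 to 98.4 by library, median 70.3), 162 CPM in Gfap-negative nuclei (138 to 180, median 166), 135 CPM in microglia and 481 CPM in glutamatergic reference nuclei. Gm20642 was at 57.8, 131, 99.7 and 362 CPM in the same order, and Nwd2 at 71.7, 146, 104 and 346 CPM. None passed in the matched comparison, where the log2 ratios of Nrg3os, Gm20642 and Nwd2 were -0.26, -0.56 and -0.54. They moved with the neuron markers given above, whose part in these differences was not tested. Strand was not stated for the counting used here, so reads of an antisense transcript and of its partner may not be told apart.

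The summed markers of other cell types were compared in the same 2 groups. Microglia markers were at 171 against 179 CPM, ependymal markers at 56.0 against 63.5 CPM, neuroblast markers at 216 against 228 CPM and choroid plexus markers at 666 against 730 CPM. Oligodendrocyte markers were at 1953 against 1468 CPM, higher in 6 of 6 libraries (913 to 4547 and 496 to 2596 CPM by library), with Mbp at 1310 against 926 CPM and Mog absent by the rule. Endothelial and mural markers were at 1037 against 863 CPM, higher in 4 of 6 libraries, and at 1055 against 714 CPM when matched, where the endothelial gene Flt1 passed 2-fold at 317 against 150 CPM. Fibroblast markers were at 285 against 242 CPM, and in the matched sets at 269 against 199 CPM (log2 ratio 0.44), higher in 6 of 6 libraries, with 3 of 3 measured genes above 0 and the transporter gene Slc6a20a past 2-fold at 72.9 against 33.1 CPM. Oligodendrocyte precursor markers were at 320 against 374 CPM, higher in 2 and lower in 4 libraries. The part of these cell types in the values of other genes was not tested.

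Levels of several genes increased with the number of Gfap UMIs in a nucleus. Nuclei that met the rest of the rule with 0, 1, 2, 3 to 5 and at least 6 Gfap UMIs numbered 7729, 1954, 519, 371 and 131, with median depths of 3715, 3855, 4100, 4216 and 6004 UMIs. Just outside and just inside the threshold, at 1 and 2 UMIs, Myoc was at 19.4 and 41.9 CPM, C4b at 24.6 and 50.4 CPM and Id3 at 105 and 154 CPM. Myoc reached 134 CPM at 3 to 5 UMIs and 487 CPM (442 to 536) at 6 or more. Cd44 was at 5.28, 7.11, 8.92, 26.6 and 57.9 CPM over the 5 bins, and Apoe at 818, 989, 1258, 1787 and 3683 CPM. Agt went from 21.0 to 132 CPM, A2m from 6.90 to 101 CPM and Igfbp5 from 38.3 to 323 CPM.

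Other genes did not follow this order. Thbs4 was at 10.7, 18.7, 39.9, 30.8 and 25.5 CPM, and the last 3 counting intervals overlapped (32.6 to 48.4, 23.4 to 39.8 and 16 to 38.6). Gpc5 was level up to 2 UMIs and lowest at 6 or more, at 2423 CPM against 3759 CPM at 0. Slc7a10, a gene of the rule, went from 116 to 53.3 CPM and Grin2c from 78.2 to 34.7 CPM, most of it in the last bin. Slc1a3 stayed between 973 and 1220 CPM in all 5 bins. Over the same bins the neuron markers went from 14822 to 7213 CPM and the fibrous and subpial list from 480 to 2219 CPM. Oligodendrocyte markers were at 1468, 1654, 1698, 2063 and 2474 CPM, and the part of either cell type in the order of other genes was not tested. The grey matter list as a whole went the other way from Gpc5 and Grin2c, at 8676, 9892, 10722, 11862 and 12117 CPM.

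**Figure D4:**
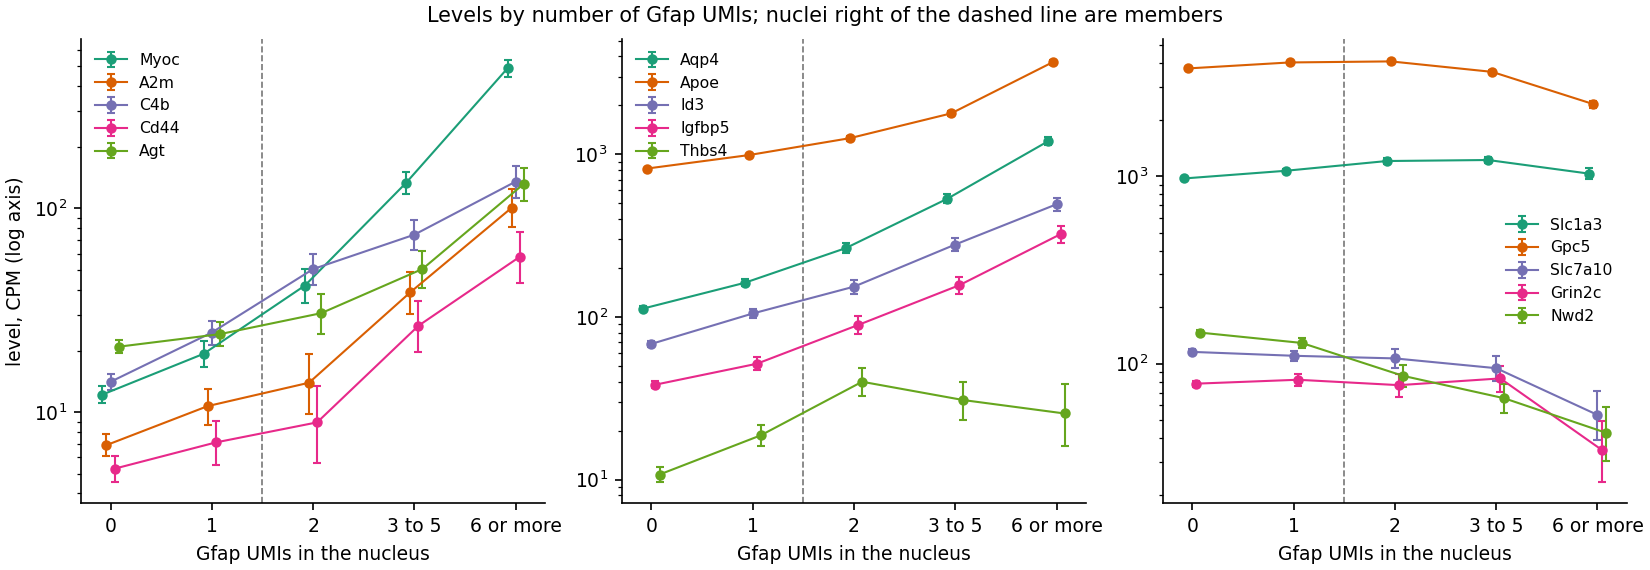
Level in CPM (log axis) of 15 genes in astrocyte nuclei with 0, 1, 2, 3 to 5 and 6 or more Gfap UMIs, with 95% Poisson intervals; the dashed line marks the threshold. Myoc goes from 12.2 to 487 CPM, the intervals of Thbs4 overlap from 2 UMIs upwards, and Gpc5, Slc7a10 and Grin2c are lowest at 6 or more, where the sum of the whole grey matter list is highest (12117 CPM).

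The members were split by detection of each marker. A Myoc UMI was present in 256 members, a Thbs4 UMI in 92 and a Tnc UMI in 419, with 21, 8 and 38 or more positive members in every library. Of the Thbs4-positive members 17 (18.5%) also held Myoc, against 25.7% of the members without Thbs4. Tnc was found in 46.7% of Thbs4-positive and 47.3% of Myoc-positive members, against 40.5% and 39.0% of the members without Thbs4 and without Myoc, and 5 members held all 3. Summed Myoc was at 76.5 CPM in Thbs4-positive and 153 CPM in Thbs4-negative members (interval of the log2 ratio -1.53 to -0.51), lower in 4 of 6 libraries.

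Myoc-positive members differed from the other members in 28 of 4333 genes (0.646%) that were at least 2-fold higher in 6 of 6 libraries and in 2 (0.0462%) that were lower. In these splits genes with a mean of at least 50 CPM over both subsets were compared, with only the splitting gene left out. Genes of the selection rule thus stayed in, and Aqp4 is among the 28. A gene under 50 CPM in either subset could enter through the other, as Fbxo2, Ccdc3, Sulf2, Fxyd6 and Emp2 did through Myoc-positive members. The highest were Fbxo2, a ubiquitin ligase component that binds glycoproteins, at 102 against 27.5 CPM, Ccdc3 at 104 against 33.5 CPM, the glutamine transporter gene Slc38a1 at 460 against 149 CPM, and Sulf2, a heparan sulfate sulfatase, at 134 against 44.4 CPM. Fxyd6, Eya4, Disp3 and Emp2 followed with log2 ratios of 1.42 to 1.37. Cd44 was at 50.2 against 12.7 CPM (log2 ratio 1.98, 1.44 to 2.53), Aqp4 at 872 against 375 CPM, Apoe at 3018 against 1386 CPM, Igfbp5 at 264 against 108 CPM and Il6st at 210 against 97.4 CPM, each higher in 6 of 6 libraries. The mean of Cd44 fell under 50 CPM, so Cd44 entered neither the count nor the ranking. Genes of the grey matter list went both ways: Gpc5 was at 2752 against 3995 CPM, Grin2c at 48.8 against 81.3 CPM and Slc6a11 at 175 against 252 CPM, each lower in 6 of 6, while Atp1b2 was at 248 against 158 CPM and Glul, the glutamine synthetase gene, at 598 against 406 CPM, each higher in 6 of 6, and Slc1a2 at 6118 against 4887 CPM, higher in 4 of 6. The 2 lower genes were Trank1 (36.6 against 76.1 CPM) and Ak5 (52.2 against 106 CPM). All 6 neuron markers outside the rule were also lower in Myoc-positive members, with log2 ratios from -0.71 for Rbfox3 to -0.36 for Snap25. Summed oligodendrocyte markers were at 2384 against 1788 CPM, higher in 5 of 6 libraries and for 6 of 8 genes (Cnp at 119 against 83.1 CPM, Mbp at 1618 against 1192 CPM and Mobp at 251 against 186 CPM), with Mog absent by the rule. Endothelial and mural markers were at 1166 against 988 CPM and fibroblast markers at 345 against 262 CPM, each higher in 4 of 6 libraries, with the mural gene Rgs5 at 243 against 162 CPM and the fibroblast gene Slc47a1 at 22.4 against 8.31 CPM. Rgs5 was higher in 4 and lower in 2 libraries. Slc47a1, with 33 and 32 UMIs, was higher in 2 and lower in 2. Choroid plexus markers were at 833 against 602 CPM, higher in 3 of 6. Neuroblast markers were at 179 against 230 CPM, lower in 4 of 6 libraries and for 6 of 8 genes. Among these, Dcx was at 26.4 against 56.6 CPM, lower in 6 of 6. The part of these cell types in the differences was not tested. Median depth was 4778 UMIs in Myoc-positive and 4169 UMIs in Myoc-negative members, and Gfap itself was at 1003 against 597 CPM.

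In Thbs4-positive members 7 of 4349 genes (0.161%) were at least 2-fold higher and 5 (0.115%) lower. Shroom3, an actin regulator of epithelial shape, led at 83.1 against 20.5 CPM, followed by 2610307P16Rik (166 against 58.3 CPM), Cmya5, Ggta1, the peroxidasin gene Pxdn, Plch1 and Gm28175. Only 2610307P16Rik and Cmya5 exceeded 50 CPM in Thbs4-negative members. The rest entered through Thbs4-positive members, of which a library held as few as 8. The lower genes were Shisa6, Prr16, the circadian factor gene Hlf, Hs3st4 and Pak7, with log2 ratios of -1.31 to -1.18. The 6 neuron markers were lower here too, from -0.67 for Rbfox3 to -0.19 for Snap25, and in Tnc-positive members from -0.87 for Rbfox3 to -0.29 for Snap25. Oligodendrocyte markers were at 1723 against 1974 CPM in the Thbs4 split and at 2029 against 1893 CPM in the Tnc split, and oligodendrocyte precursor markers at 234 against 328 CPM (lower in 5 of 6 libraries) and 279 against 352 CPM (lower in 4 of 6). Of the 6 precursor genes, 4 were lower in Thbs4-positive members, but 4 were higher in Tnc-positive members despite the lower sum. In the Tnc split endothelial and mural markers were at 882 against 1159 CPM and neuroblast markers at 188 against 237 CPM, each lower in 5 of 6 libraries, and microglia markers at 142 against 195 CPM, lower in 6 of 6. The part of these cell types was not tested. Gfap was at 711 and 709 CPM in Thbs4-positive and Thbs4-negative members, and Cd44 at 26.2 and 22.8 CPM. Tnc-positive members differed in fewer genes: 2 of 4293 (0.0466%) were higher, 8030451A03Rik (97.3 against 28.9 CPM) and the transcription factor gene Sall3 (68.9 against 33.6 CPM), and 1 (0.0233%) was lower, Cntnap5c (35.7 against 120 CPM). Each of these was under 50 CPM in the subset where it was lower and entered through the other. The Notch target Hes5 was at 107 against 57.8 CPM in Tnc-positive members, higher in 6 of 6 libraries and below 2-fold, and Gpc5 was at 4204 against 3214 CPM. With 92 Thbs4-positive members, genes with a mean under 50 CPM were left out of the counts of 2-fold differences. Cd44, under that level, is given as a description.

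**Figure D5:**
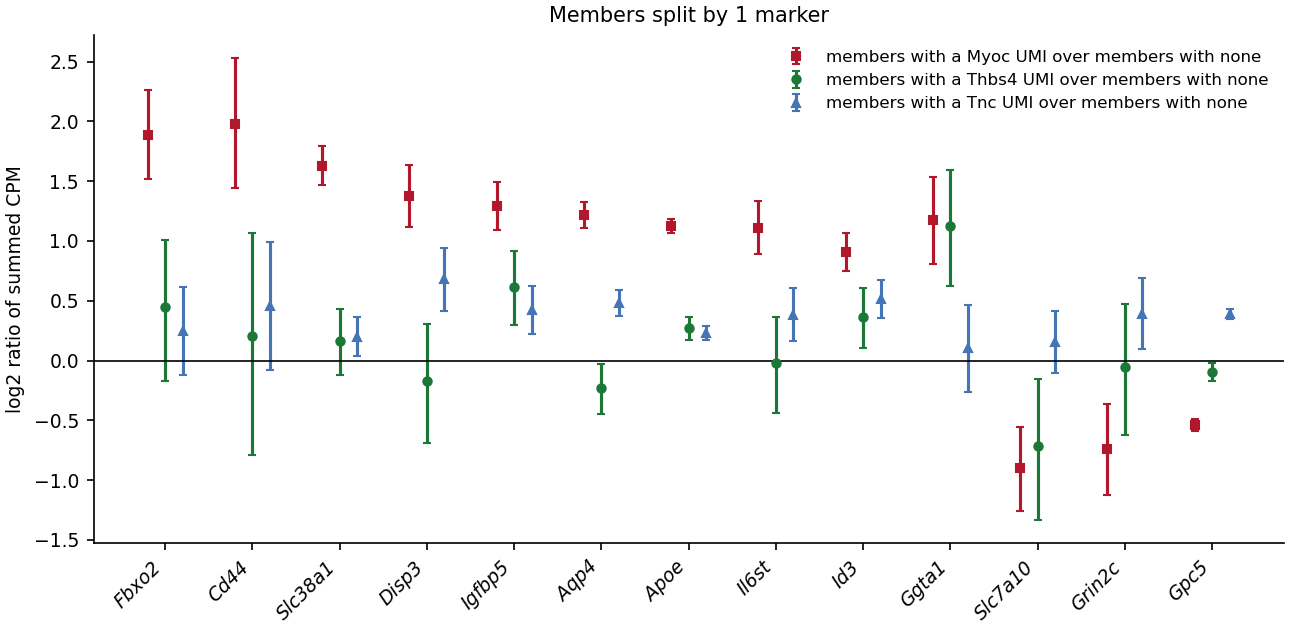
Log2 ratio of summed CPM in members with a UMI of Myoc (red squares), Thbs4 (green circles) or Tnc (blue triangles) over members with none, for 13 genes, with 95% counting intervals. Cd44, Slc38a1, Aqp4 and Apoe lie between 1.12 and 1.98 for Myoc and between -0.23 and 0.27 for Thbs4, Ggta1 is at 1.17 and 1.12, and Slc7a10, Grin2c and Gpc5 are below 0 for Myoc. Aqp4 and Slc7a10 are genes of the rule. Slc1a2, Glul and Atp1b2 of the grey matter list are not drawn and were above 0 for Myoc.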

How the data were processed

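Single-nucleus RNA-seq libraries were made from the forebrain of 3 WT and 3 Npc1-/- mice. The authors deposited 1 matrix of UMI counts, raw and not normalized, for 75878 barcodes and 32285 genes; per the labels the reads were aligned to mm10 with Cell Ranger 2.1.1, whereas the file header names version 6.0.0. The study's methods instead describe alignment with STARsolo, removal of low-count barcodes with EmptyDrops and removal of multiplets with DoubletFinder, and no source states whether the deposited matrix had passed these filters. Libraries were told apart by the barcode suffix alone, so genotypes were not compared and no test was run.

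UMI counts were summed over nuclei and divided by their total (CPM). Ratios carry 95% conditional binomial intervals, levels exact Poisson intervals and shares Clopper-Pearson intervals, all of which cover counting error only. The limit given for a count of 0 is 3 counts over the total. Nuclei with a mitochondrial share of 10% or more were left out. A gene was called higher or lower at 2-fold or more, on the same side in 6 of 6 libraries, at a mean of at least 20 CPM (50 CPM for splits of the members). Genes of the selection rule were left out of the comparisons with Gfap-negative nuclei. In the splits only the splitting gene was left out. Named genes were the label's markers, the 15 of highest and the 15 of lowest ratio among those on 1 side in all libraries and, for each of 25 gene lists, up to 4 members of highest level and any past 2-fold. Every other gene named was picked after its values had been seen. The members and lists were chosen with earlier results of these data known. The ratio and call steps were tested on simulated data. Scrublet in scanpy 1.11.5 called 0 to 4 nuclei a library, under 0.5% of the nuclei, and was not relied on as a doublet caller; no doublets were removed here, and its scores were used only to leave out the top 10% as an alternative. Python 3.11.15, scipy 1.17.1 and edgeR 4.0.16 (for TMM factors only) were used. Gene positions came from GENCODE and promoter windows from RefSeq, both for GRCm38. Alternatives varied the selection rule, depth, scaling, level minimum and libraries; those with at least 6 Gfap UMIs, without libraries 3 and 4, and with at least 5 of 7 astrocyte genes were chosen after seeing the data.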

Additional observations from a re-analysis of the deposited data

How the results depend on the processing

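The share of Gfap-rich nuclei, 1.35%, was 3.92% at 1 or more Gfap UMIs, 0.662% at 3 or more, 0.173% at 6 or more, 1.12% and 0.821% with at least 4 and 5 of 7 astrocyte genes, 0.654% with 0 UMIs of other classes, 0.972% without libraries 3 and 4, and 1.14% to 1.45% with 1 library left out. The 87 higher and 12 lower genes became 13 and 0 at 1 or more Gfap UMIs, 199 and 148 at 3 or more, and 332 and 311 at 6 or more. They became 159 and 180 without libraries 3 and 4, 132 and 66 in nuclei of 4000 to 12000 UMIs, 57 and 2 with nuclei weighted equally, 49 and 5 at a minimum of 50 CPM, and 207 and 274 with no minimum. With 1 library left out there were 75 to 106 higher and 5 to 32 lower genes. Lower genes alone numbered 2 and 5 with at least 4 and 5 of 7 astrocyte genes, 41 without the top 10% of doublet scores, 36 with TMM and 36 with median-of-ratios scaling, 97 by the median of ratios within libraries, 5 against nuclei with 0 or 1 Gfap UMI and 28 at a minimum of 10 CPM. The log2 ratio of the fibrous and subpial list, 1.31, was 0.79, 1.68 and 2.21 at 1, 3 and 6 or more Gfap UMIs, 1.11 and 0.99 with at least 4 and 5 of 7 astrocyte genes, 1.24 with 0 UMIs of other classes, 1.27 at a mitochondrial share under 1%, 1.38 without the top doublet scores, 1.54 without libraries 3 and 4, 1.47 in the depth window, 1.20 with TMM and 1.20 with median-of-ratios scaling, 1.14 with equal weights, 1.45 by the median within libraries, 1.23 against 0 or 1 Gfap UMI, and 1.25 to 1.38 with 1 library left out. The grey matter ratio, 0.39, took the opposite sign with at least 4 (-0.10) and 5 (-0.31) of 7 astrocyte genes, and the cause was not tested. In the order of the other settings just given it was 0.27, 0.46 and 0.48 by Gfap UMIs, 0.19 with 0 UMIs of other classes, 0.36 by mitochondrial share, 0.44 without the top doublet scores, 0.38 without libraries 3 and 4, 0.58 in the depth window, 0.28 with TMM and 0.28 with median-of-ratios scaling, 0.18 with equal weights, 0.43 by the median within libraries, 0.35 against 0 or 1 Gfap UMI, and 0.34 to 0.46 with 1 library left out. Of 672 alternative values for 32 named genes, 447 moved by less than their spread, 225 by more, and 0 changed sign. These are the genes of highest and lowest ratio with Thbs4 and Tnc, chosen for 1 sign in all libraries. Of 171 list genes measured in both comparisons, 52 (30.4%) changed sign when matched, among them Lifr, Nfia and Slc6a11, against 30.5% of all genes. For WT against Npc1-/- samples, no paired analysis was possible because no label ties a library to a sample. Gfap-rich and Gfap-negative nuclei could be paired within each library: the medians of the ratios within libraries are the values given above, and no paired test was run on them because the libraries are unlabelled samples.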
